A study of Mus musculus with 12 samples.

Results

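The nuclear genes for subunits of the mitochondrial respiratory chain and of ATP synthase were examined in the nucleus accumbens, the ventral part of the striatum, of adult mice exposed before birth to a viral mimic. They were taken as the array probe sets annotated with a single gene symbol that begins with Ndufa, Ndufb, Ndufc, Ndufs, Ndufv, Sdh, Uqcr, Cox4, Cox5, Cox6, Cox7, Cox8 or Atp5. That rule found 126 probe sets of 92 genes, out of 18820 genes with such a probe set, and each gene is represented by its probe set with the highest mean. Of the 92 genes, 79 encode subunits, and the other 13 are assembly factors or relatives that share a prefix. The prefixes leave out the cytochrome subunit Cyc1, and Uqcrc2, Ndufa13 and Cox7c were not used because their probe sets carry several symbols.

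The mice of both groups were of the C57BL/6N strain and 12 weeks old when their brains were taken, after behavioural tests. The dams of the poly(I:C) group received 5 mg/kg of poly(I:C), a double-stranded RNA made by synthesis, into a vein on gestation day 17, and the dams of the control group received saline. There were 6 arrays in each group, labelled as biological replicates. The tissue held core and shell together, cut from 1-mm slices, so it is a mixture of cells in which fewer cells of a type and less RNA per cell cannot be told apart.

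The respiratory chain passes electrons from NADH through complex I, or from succinate through complex II, to ubiquinone, then through complex III and cytochrome c to complex IV, where oxygen is reduced. Complexes I, III and IV pump protons out of the matrix, and complex V, the ATP synthase, uses their return to make ATP. Most of the subunits are encoded in the nucleus and imported, while a small catalytic set is encoded by mitochondrial DNA and was not analysed here. Neurons depend on this chain for the ion pumping that follows synaptic activity.

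All levels below are log2 values after robust multi-array averaging (RMA), and each difference is poly(I:C) minus control on that scale. Levels of different genes come from different probes and are not compared with each other. A gene was called when the limma p-value, adjusted by the Benjamini-Hochberg method over all 21218 probe sets with a single symbol, was under 0.05. Of those probe sets, 13 (0.0613%) were called.

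Some arrays stood apart for these genes whatever their group. For 56 of the 92 genes (60.9%) the highest of the 12 values was in control 1 or control 4, against 24.3% of all tested probe sets. The lowest value was in poly(I:C) 6 for 35 genes (38.0%), against 16.0% of all tested probe sets. The median deviation of the 92 genes from their means over the 12 arrays was 0.11 in control 1, 0.10 in control 4 and -0.09 in poly(I:C) 6, and lay between -0.08 and 0.02 in the other arrays. The median deviation of all tested probe sets stayed between -0.02 and 0.01. These 3 arrays are kept in every value below unless stated.

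**Figure D1:**
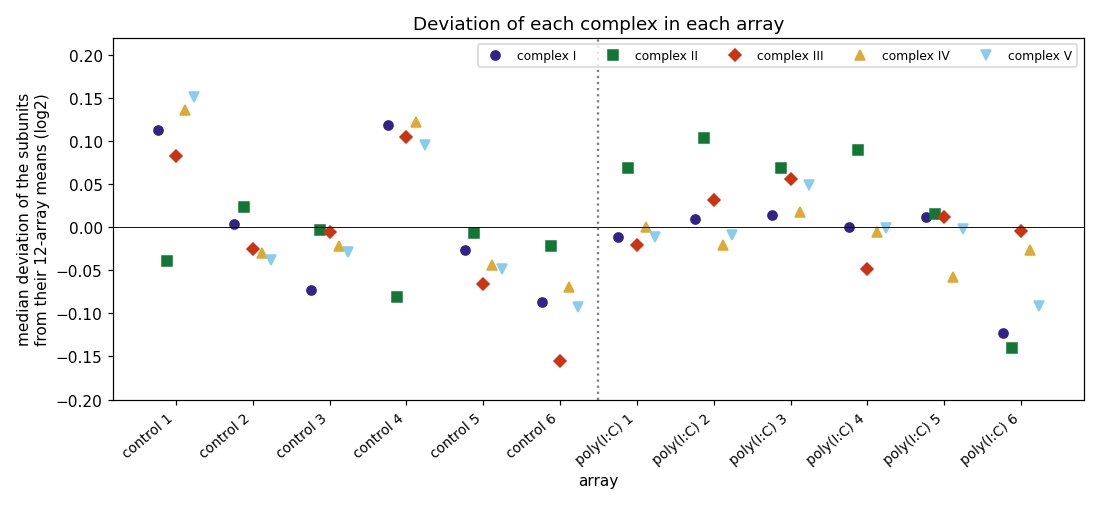
Median deviation of the subunits of each complex from their own means over the 12 arrays (vertical axis, log2) in each array (horizontal axis). In control 1 and control 4 complexes I, III, IV and V sit above 0 and complex II below it, and in poly(I:C) 6 all 5 complexes sit below 0, with complex III nearest to it.

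Markers of the tissue and of its surroundings differed between arrays. The mean of 10 measured medium spiny neuron genes, the main cell type of the accumbens, ran from 9.24 to 9.78 in controls and from 9.48 to 9.83 after poly(I:C). The mean of 10 choroid plexus genes ran from 4.49 to 6.46 in controls, with its highest values in control 4 and control 6, and from 4.36 to 4.56 after poly(I:C). The mean of 8 cortical neuron genes ran from 5.45 to 6.61 and from 5.95 to 6.77. The mean of 10 myelin genes ran from 7.87 to 8.41 in controls and from 7.68 to 7.85 after poly(I:C), without overlap. The part of these tissues in the results on respiratory genes was not tested, and values from fits that hold marker means as covariates are given for the 92 genes, by complex and for single genes.

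Uqcrc1, which encodes a core protein of complex III that faces the matrix, rose after poly(I:C) and was the only one of the 92 genes called. No other subunit gene of complexes I to V passed the adjusted threshold in either direction. At an unadjusted p under 0.05 there were 7 genes higher and 5 lower, 12 of 92 (13.04%) in all. Of all tested probe sets 14.4% reached that level, 7.83% higher and 6.57% lower, close to the share among these genes. That comparison mixes levels of expression, because 80 of the 92 genes had a mean at or above the median of all tested probe sets. At or above that median, 12.5% of the 80 genes had such a p-value, against 19.8% of tested probe sets. The ranges of the groups were separate for 2 of the 92 genes, Uqcrc1 and the assembly factor gene Ndufaf4, against 1.13% of all tested probe sets.

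In value, 39 of the 92 genes were higher and 53 lower after poly(I:C), with a median difference of -0.01 against 0.00 for all tested probe sets. Of the 80 genes with a mean at or above the median of all tested probe sets, 40% were higher. Of tested probe sets at or above that median, 59.5% were higher. The median differences of these were -0.02 and 0.02. The balance among the 92 genes was not stable. With single arrays left out, the number of genes higher in value ran from 32 to 51. Without control 1, control 4 and poly(I:C) 6 it was 70, with a median difference of 0.04. Those arrays were picked after seeing that these same genes were high or low in them, and control 6, with a median deviation of -0.08, was kept. An upward shift was therefore fixed by the choice, and nothing is read from it here or where that omission is given for single genes or complexes. With marker means as covariates the balance went the other way. With the cortical and choroid plexus means 30 genes were higher and 62 lower (median -0.06), and 17 had an unadjusted p under 0.05, against 8.39% of all tested probe sets. With the myelin mean 25 were higher and 67 lower (median -0.11), and 30 had an unadjusted p under 0.05, against 13.4% of all tested probe sets. The myelin mean does not overlap between the groups, so that fit separates little from exposure. In both covariate fits 0 genes passed the adjusted limma threshold.

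**Figure D2:**
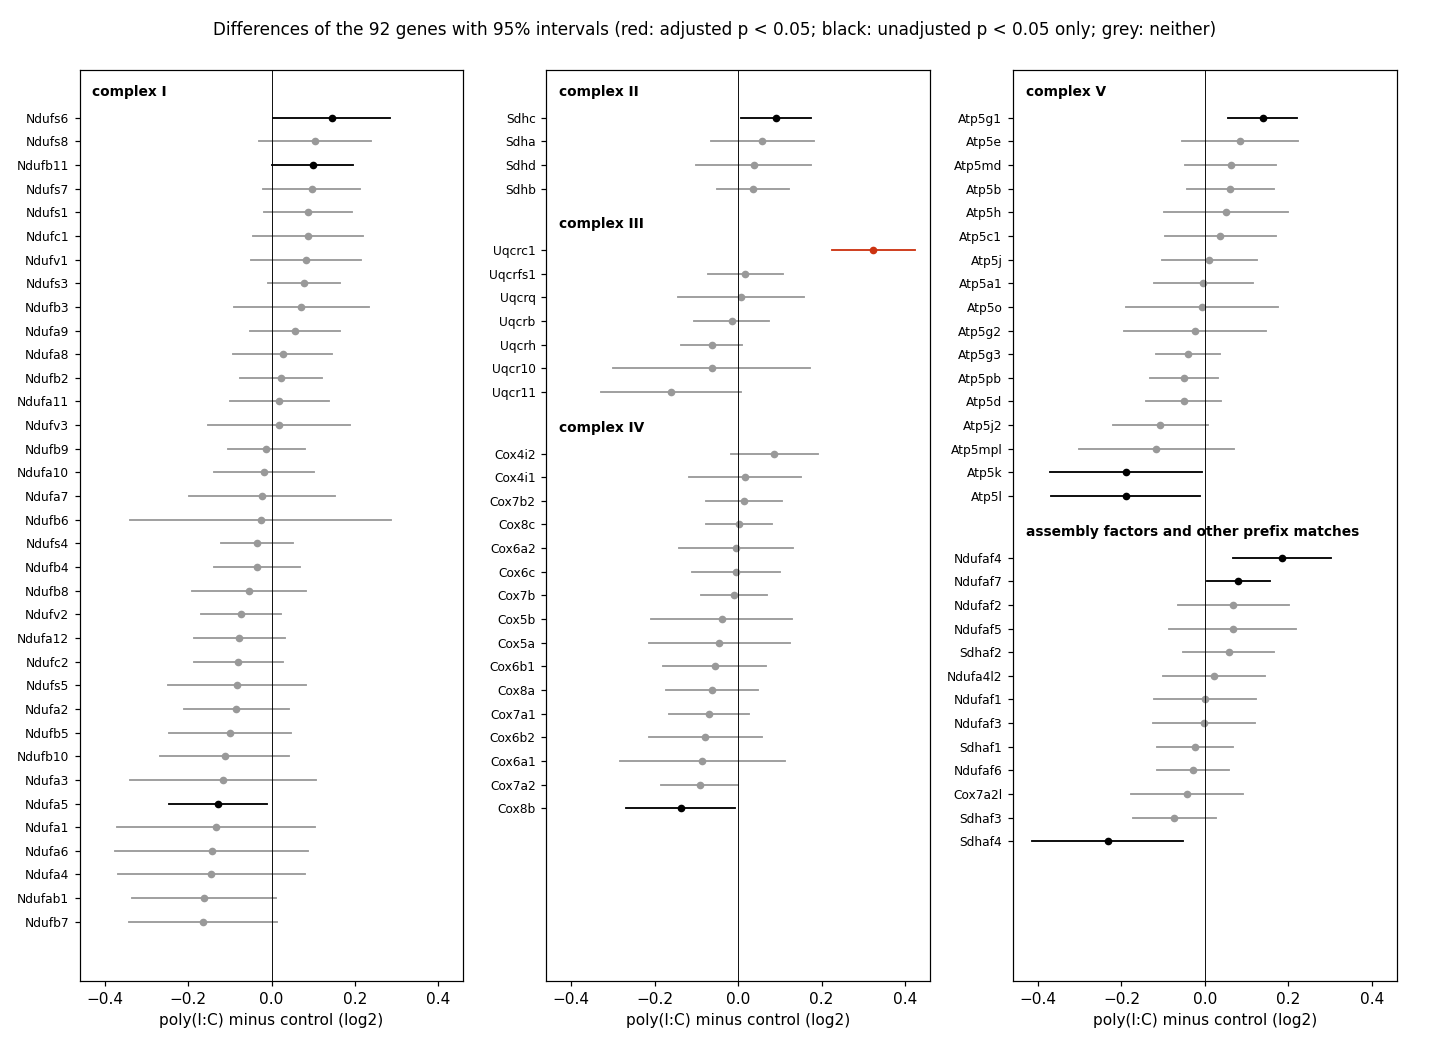
Difference of each of the 92 genes (horizontal axis, poly(I:C) minus control, log2) with its 95% interval from the limma fit, by complex, with 6 arrays per group. Uqcrc1 at 0.32 is in red as the gene past the adjusted threshold, 11 further genes in black have an unadjusted p under 0.05, and the others are grey.

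The call on Uqcrc1 rests on a shift that appeared in every poly(I:C) array. Its level ran from 8.56 to 8.78 in controls, with a median of 8.65, and from 8.87 to 9.07 after poly(I:C), with a median of 9.01. The lowest poly(I:C) array, poly(I:C) 1, lay above the highest control, control 3. The difference was 0.32 (95% interval 0.22 to 0.42), or 1.25-fold, with 8.67 ± 0.08 against 8.99 ± 0.08 (SD, n = 6 arrays per group; limma adjusted p = 0.0433).

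The size of the Uqcrc1 difference varied little between settings, and its call was not stable. Over 23 alternative settings the difference stayed between 0.29 and 0.35, and the limma adjusted p was under 0.05 in 11 of them, with a range from 0.0125 to 0.468. Settings that changed only the moderation, the filter on level, the replicate block or the probe set per gene could not change this difference. The 23 leave out a fit to all 35556 deposited probe sets, in which 0 probe sets were called and the call on Uqcrc1 was lost. The call was lost on leaving out control 4, 5 or 6 singly, or poly(I:C) 2, 3, 4 or 5 singly, with limma adjusted p-values of 0.0984, 0.0774, 0.0959, 0.121, 0.106, 0.134 and 0.110 in that order. With the cortical and choroid plexus means as covariates the difference was 0.29 (limma adjusted p = 0.468). With the myelin mean as a covariate it was 0.32 (limma adjusted p = 0.256).

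The promoter of Uqcrc1 is shown with those of Atp5g1 and Ndufaf4, because these 3 genes had the smallest unadjusted p-values among the 92. Each sequence is the RefSeq window of GRCm38.p6 from 250 bases before to 50 bases after the start of the gene, in the direction of transcription. Capitals mark matches to the motif of nuclear respiratory factor NRF1, GCGCA followed directly by TGCGC, which reads the same on both strands. Matches to CCGGAAGT for ETS factors such as GABP, AANATGGCG for YY1 or TNAAGGTCA for the estrogen-related receptors would also be in capitals, and these windows hold none of them on either strand.
Uqcrc1, chr9:108936398-108936697, plus strand: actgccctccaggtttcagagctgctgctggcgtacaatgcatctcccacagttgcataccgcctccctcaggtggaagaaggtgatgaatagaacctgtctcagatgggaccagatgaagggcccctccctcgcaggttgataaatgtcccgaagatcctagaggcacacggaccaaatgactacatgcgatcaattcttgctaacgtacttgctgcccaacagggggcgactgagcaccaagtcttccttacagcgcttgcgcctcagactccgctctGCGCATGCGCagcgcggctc
Atp5g1, chr11:96075582-96075881, minus strand: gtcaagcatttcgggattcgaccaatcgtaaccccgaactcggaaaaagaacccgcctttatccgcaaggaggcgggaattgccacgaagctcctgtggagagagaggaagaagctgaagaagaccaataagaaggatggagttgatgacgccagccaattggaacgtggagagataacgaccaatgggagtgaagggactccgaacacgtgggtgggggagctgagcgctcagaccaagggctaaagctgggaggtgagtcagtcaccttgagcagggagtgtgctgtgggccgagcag
Ndufaf4, chr4:24897833-24898132, plus strand: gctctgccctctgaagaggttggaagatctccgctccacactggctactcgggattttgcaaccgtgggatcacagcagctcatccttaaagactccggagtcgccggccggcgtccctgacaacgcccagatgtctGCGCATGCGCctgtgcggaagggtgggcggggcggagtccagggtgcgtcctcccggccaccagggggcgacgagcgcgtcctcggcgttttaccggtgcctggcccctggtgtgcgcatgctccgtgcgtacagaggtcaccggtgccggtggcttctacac

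The NRF1 motif begins at base 281 of the window of Uqcrc1, downstream of the start, and at base 138 of that of Ndufaf4, upstream of it. Of the 92 genes, 77 had a promoter window in the table, and 7 of these (9.09%) held the motif, against 290 of 27025 genes (1.07%). The ETS motif was in 6.49% of the 77 genes and 4.31% of all, the YY1 motif in 14.3% and 2.76%, and the motif of the estrogen-related receptors in 3.90% and 1.43%. The other 5 genes with the NRF1 motif were Ndufa11 (difference 0.02), Ndufaf5 (0.07), Cox6a1 (-0.09), Atp5g2 (-0.02) and Atp5k (-0.19), and none of them was called. A match is a description of the letters in the window and not a site of binding.

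The other complex III genes lay closer to 0 than Uqcrc1. Complex III takes electrons from ubiquinone and hands them to cytochrome c. In it the core proteins form the matrix part, the Rieske iron-sulfur protein and the cytochromes carry the electrons, and several small subunits surround them. Of the 6 other genes that the prefix rule found, 2 were higher and 4 lower in value, with a median difference of -0.04 (-0.17 with the myelin mean as a covariate). Of these 0 had an unadjusted limma p under 0.05. The gene of the other core protein, Uqcrc2, is not among them because its probe sets carry several symbols. The upper 95% bounds of all 6 lay at or under 0.17, below the lower bound of 0.22 for Uqcrc1. Uqcrc1 was singled out for its large difference, so these bounds are a description and no test of a contrast between the genes.

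Uqcrfs1, the gene of the Rieske protein, ran from 6.47 to 6.57 in controls (median 6.53) and from 6.42 to 6.66 after poly(I:C) (median 6.53), a difference of 0.02 (95% interval -0.07 to 0.11). Its groups overlapped throughout. Uqcrb, which encodes a small subunit at the ubiquinone-binding side, ran from 10.07 to 10.22 in controls and from 9.998 to 10.20 after poly(I:C), a difference of -0.02 (95% interval -0.11 to 0.07). Uqcrh, the gene of the hinge protein that helps cytochrome c dock, stood at 8.67 ± 0.06 and 8.61 ± 0.03 (SD, n = 6), a difference of -0.06 (95% interval -0.14 to 0.01). Neither of these small subunits reached an unadjusted p under 0.05.

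Uqcrq, Uqcr10 and Uqcr11, small subunits of the membrane part, had extreme values in the arrays that stood apart. Uqcrq was at 8.21 in control 1 and 8.12 in control 4, while the other 10 arrays lay between 7.74 and 7.996, and its difference was 0.01 (95% interval -0.15 to 0.16). Uqcr10 was at 7.74 in control 1, 7.69 in control 4 and 7.04 in poly(I:C) 6, with a difference of -0.06 (95% interval -0.30 to 0.17). Uqcr11 ran from 8.15 to 8.57 in controls and from 8.06 to 8.46 after poly(I:C), a difference of -0.16 (95% interval -0.33 to 0.01; limma adjusted p = 0.366). Its highest poly(I:C) value was in poly(I:C) 6, an array in which 66 of the 92 genes lay below their means, against 74 in control 6.

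**Figure D3:**
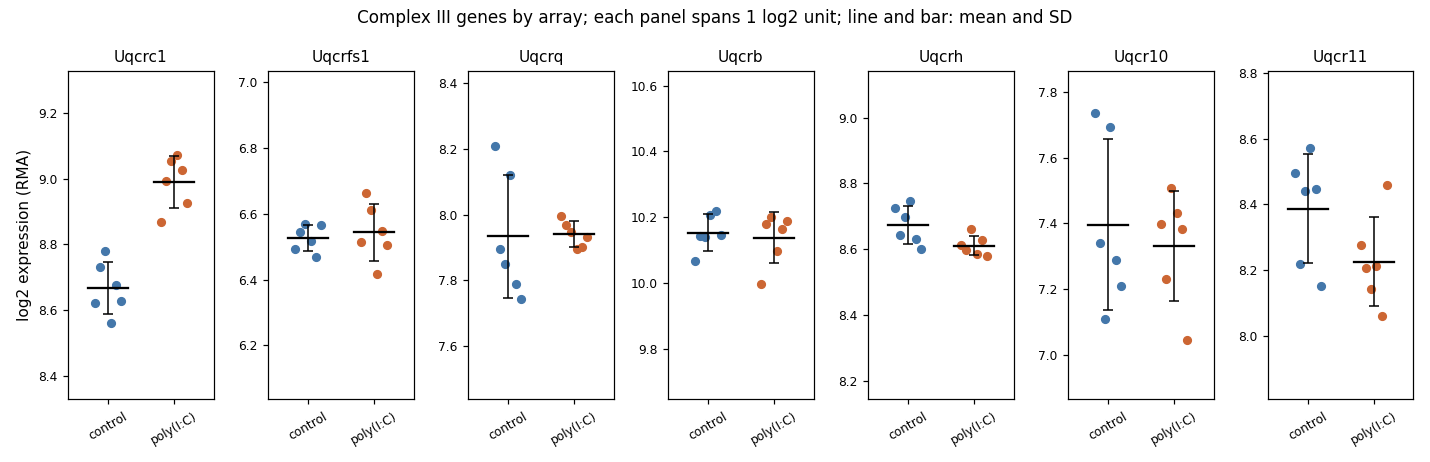
Log2 expression (vertical axis, each panel spanning 1 log2 unit) of the 7 complex III genes in 6 control (blue) and 6 poly(I:C) (orange) arrays, with the mean and SD in black. The groups are separate for Uqcrc1 and overlap for the other 6 genes.

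Within each array, Uqcrc1 was set against the mean of the other 6 complex III genes, after each gene was centred on its mean over the 12 arrays. This contrast was -0.19 ± 0.16 in controls and 0.19 ± 0.08 after poly(I:C) (SD, n = 6), a difference of 0.37. It ran from -0.42 to -0.03 in controls and from 0.06 to 0.29 after poly(I:C), so every poly(I:C) array was above every control. The lowest controls were control 4 and control 1, where the other genes were high and Uqcrc1 was low. The mean of the other 6 genes differed by -0.05. Uqcrc1 was singled out with its result known, so this contrast is a description without a test. It was 0.28 without control 1, control 4 and poly(I:C) 6.

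Partners of complex III outside the prefixes gave 0 calls. Cyc1, the gene of cytochrome c1 in the same complex, stood at 8.75 ± 0.11 in controls and 8.79 ± 0.02 after poly(I:C), a difference of 0.04. Cycs, which encodes the mobile carrier cytochrome c, differed by 0.02. Pmpca and Pmpcb encode the mitochondrial processing peptidase, which is related in sequence to the core proteins of complex III, and differed by 0.01 and -0.06. Of 6 complex III assembly genes 1 was higher at an unadjusted p under 0.05 (16.7%, against 14.4% of all tested probe sets). It was Uqcc3 with 0.15 (limma adjusted p = 0.280), and Lyrm7 was at -0.06 and Ttc19 at 0.03.

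Complex I, the NADH dehydrogenase, gave 0 calls among its 35 genes, of which 14 were higher and 21 lower in value. The limma fit gave 2 genes higher and 1 lower at an unadjusted p under 0.05 (8.57%, against 14.4% of all tested probe sets). The core subunits, which bind NADH and carry the flavin and iron-sulfur clusters, were higher in value for 5 of 6 genes, with differences from -0.07 (Ndufv2) to 0.10 (Ndufs8) and a median of 0.08. Ndufs7, which holds the cluster next to ubiquinone, ran from 9.57 to 9.91 in controls (median 9.76) and from 9.75 to 9.93 after poly(I:C) (median 9.83). Its difference was 0.10 (95% interval -0.02 to 0.21), and none of the 6 core genes had an unadjusted p under 0.05. With any single array left out, 5 of the 6 were higher in value, and up to 2 had an unadjusted p under 0.05.

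The accessory subunits of complex I surround the core and are needed for its assembly and stability. Of 28 genes 9 were higher and 19 lower in value, with a median difference of -0.04. With the myelin mean as a covariate 6 were higher and 22 lower, and the median over all 35 complex I genes was -0.14 in place of -0.03. Ndufs6, a zinc-binding subunit, ran from 6.81 to 7.15 in controls (median 7.03) and from 6.98 to 7.25 after poly(I:C) (median 7.16), a difference of 0.14 (limma adjusted p = 0.336). Ndufb11, a subunit of the membrane arm, ran from 8.95 to 9.11 (median 8.97) and from 8.96 to 9.18 (median 9.12), a difference of 0.10 (limma adjusted p = 0.338). In both genes most poly(I:C) arrays lay above the control median, and the groups overlapped.

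Ndufa5 was the complex I gene at an unadjusted p under 0.05 in the other direction. It ran from 6.38 to 6.67 in controls, with control 4 and control 1 highest, and from 6.27 to 6.45 after poly(I:C), a difference of -0.13 (limma adjusted p = 0.305), which was -0.06 without control 1, control 4 and poly(I:C) 6. Ndufc2, a membrane arm subunit, was at 10.17 ± 0.11 and 10.09 ± 0.06 (SD, n = 6), a difference of -0.08. Ndufb6 had the widest spread, from 8.59 to 9.45 in controls and from 8.46 to 9.22 after poly(I:C), so that its difference of -0.03 carried an interval from -0.34 to 0.29. Ndufa4, named for complex I but known as a subunit of complex IV, differed by -0.14 (95% interval -0.37 to 0.08).

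Complex II, the succinate dehydrogenase, which also works in the citric acid cycle, was higher in value for all 4 genes, with a median difference of 0.05 and 0 calls. Sdhc, a membrane anchor, ran from 7.88 to 7.98 in controls (median 7.93) and from 7.88 to 8.07 after poly(I:C) (median 8.05), a difference of 0.09 (limma adjusted p = 0.311). Poly(I:C) 6 was at 7.88 and the other 5 poly(I:C) arrays lay from 8.02 upward, above every control. The flavoprotein gene Sdha was at 0.06 (95% interval -0.07 to 0.18), the iron-sulfur gene Sdhb at 0.04 and the other anchor gene Sdhd at 0.04. The count of 4 higher in value became 3 of 4 with the cortical and choroid plexus means or the myelin mean as covariates and without control 4 and control 6.

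Complex IV, the cytochrome c oxidase, was lower in value for 12 of 16 genes, with a median difference of -0.04 and 0 calls. An unadjusted p under 0.05 was found for 1 gene (6.25%, against 14.4% of all tested probe sets). The 9 common genes expressed in most tissues were lower for 8, with differences from -0.09 to 0.02. With single arrays left out, 5 to 9 of these 9 were lower, and without control 1, control 4 and poly(I:C) 6 there was 1. With the myelin mean as a covariate the median of the 16 genes was -0.11. Cox7a2 ran from 8.44 to 8.68 in controls (median 8.49) and from 8.36 to 8.47 after poly(I:C) (median 8.45), a difference of -0.09 (limma adjusted p = 0.348). Cox4i1 and Cox6c, both genes of common subunits, were at 0.02 and -0.01. Cox6a1, Cox6b1, Cox7b and Cox8a were at -0.09, -0.06, -0.01 and -0.06. Further probe sets gave -0.02 for Cox6a1 (limma adjusted p = 0.946) and -0.09 for Cox7b (limma adjusted p = 0.283).

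Several subunits of complex IV have forms made mainly in heart and skeletal muscle, lung or testis. Of the 7 such genes, 6 had a mean under 5.47, the median of all tested probe sets, where arrays resolve differences poorly. Cox8b, the heart and muscle form of Cox8a, was the complex IV gene at an unadjusted p under 0.05, with 4.04 ± 0.12 against 3.90 ± 0.10 (SD, n = 6), a difference of -0.14 (limma adjusted p = 0.325). The mean of 5 measured muscle genes ran from 4.87 to 4.98 in controls and from 4.87 to 4.93 after poly(I:C). Cox6a2 differed by -0.01, Cox7a1 by -0.07, the lung form Cox4i2 by 0.09, and the testis forms Cox6b2, Cox7b2 and Cox8c by -0.08, 0.01 and 0.00.

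Complex V, the ATP synthase, gave 0 calls among 17 genes, 7 higher and 10 lower in value. At an unadjusted p under 0.05 were 1 higher and 2 lower (17.6%, against 14.4% of all tested probe sets). The median difference was -0.01, and -0.11 with the myelin mean as a covariate. The 5 genes of the F1 part, which holds the catalytic sites, ran from -0.05 (Atp5d) to 0.08, with 0 at an unadjusted limma p under 0.05. Atp5b, the catalytic beta subunit, was at 0.06 (95% interval -0.04 to 0.17). Atp5g1, one of the genes for the c subunit whose ring turns in the membrane, ran from 9.27 to 9.47 in controls (median 9.38) and from 9.44 to 9.58 after poly(I:C) (median 9.54). Its difference of 0.14 (95% interval 0.06 to 0.22) did not pass over all genes (limma adjusted p = 0.155), and control 3 overlapped with the lower poly(I:C) arrays. A further probe set of Atp5g1 gave 0.16 (limma adjusted p = 0.132). The other c subunit genes, Atp5g2 and Atp5g3, which encode the same mature protein, were at -0.02 and -0.04.

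Atp5k and Atp5l, subunits e and g that hold ATP synthase dimers together, were lower in value. Atp5l ran from 6.98 to 7.48 in controls (median 7.13) and from 6.87 to 7.08 after poly(I:C) (median 7.03), a difference of -0.19 (limma adjusted p = 0.319). Atp5k ran from 5.85 to 6.42 (median 6.01) and from 5.74 to 6.00 (median 5.85), a difference of -0.19 (limma adjusted p = 0.331). Both were highest in control 4 and control 1, and without those arrays and poly(I:C) 6 the differences were -0.07 for Atp5l and -0.09 for Atp5k.

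Among the 13 assembly factors and relatives, 2 were higher and 1 lower at an unadjusted p under 0.05, with 0 calls. That is 23.1% of a small set, against 14.4% of all tested probe sets. Ndufaf4, an assembly factor of complex I, ran from 5.92 to 6.17 in controls (median 6.15) and from 6.19 to 6.41 after poly(I:C) (median 6.27), with every poly(I:C) array above every control. Its difference was 0.19 (95% interval 0.07 to 0.30, limma adjusted p = 0.163), and 0.05 with the myelin mean as a covariate. Ndufaf7, which methylates a core subunit of complex I, differed by 0.08 (limma adjusted p = 0.322). Sdhaf4, which helps the flavoprotein of complex II assemble, ran from 4.36 to 5.01 in controls, highest in control 1, and from 4.34 to 4.50 after poly(I:C), a difference of -0.23 (limma adjusted p = 0.242). A further probe set of Sdhaf4 gave a smaller difference of -0.08 (limma adjusted p = 0.651). The levels of both probe sets lay under the median of all tested probe sets.

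Spread within the groups was wider in controls. The SD over the 6 arrays was larger in controls for 70 of the 92 genes (76.1%), against 59.5% of all tested probe sets. For the 92 genes the median SD was 0.11 against 0.08, and that of all tested probe sets was 0.09 and 0.08. The common complex IV genes had the larger SD in controls for 9 of 9, while the complex II genes had it for 0 of 4. Without control 1, control 4 and poly(I:C) 6 these counts were 5 of 9 and 2 of 4. In the same omission the share was 62.0% for the 92 genes and 52.8% for all tested probe sets, and the median SD of the 92 genes was 0.07 and 0.06. Those arrays were picked because these same genes were extreme in them. A smaller spread was therefore fixed by the choice, and nothing is read from it.

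**Figure D4:**
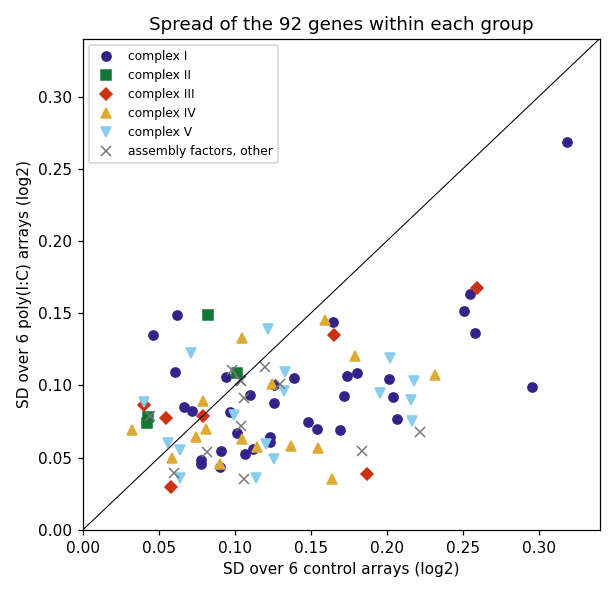
SD over 6 poly(I:C) arrays (vertical axis, log2) against SD over 6 control arrays (horizontal axis, log2) for the 92 genes, with symbols by complex and the line of equality. Of the 92 genes, 70 lie below the line, where controls vary more, and the 4 complex II genes lie above it.

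Where a gene had several probe sets, they mostly pointed the same way. There were 25 such genes with 34 further probe sets, and 28 of these had the sign of the one chosen. None of the 34 was called by limma, and 6 had an unadjusted p under 0.05, a level reached by 14.4% of all tested probe sets. Atp5l had 6 probe sets, with differences from -0.20 to -0.18, although probe sets of a gene with near-identical copies can read the same RNA and are not independent. The signs differed for a further probe set of Atp5h, Atp5o, Atp5pb, Cox7a2l, Ndufb5 and Uqcrh. Uqcrc1 had a single probe set, so its rise has no second reading on these arrays.

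Other mitochondrial pathways gave 0 calls among 89 measured genes in 9 lists, and 15 had an unadjusted p under 0.05, 10 higher and 5 lower (16.9%, against 14.4% of all tested probe sets). Of 17 regulators of mitochondrial biogenesis 3 were higher and 3 lower at that level. Ppargc1a, the coactivator that drives genes of the chain, stood at 8.02 ± 0.14 in controls and 8.19 ± 0.12 after poly(I:C), a difference of 0.17 (limma adjusted p = 0.275). Nrf1, whose product binds the motif shown above, was at 0.08, Tfam, which packages mitochondrial DNA, at -0.06, Tfb2m, a mitochondrial transcription factor, at 0.17, and Gabpb1, a GABP subunit gene, at -0.11.

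Of 19 complex IV assembly genes 3 were higher and 1 lower at an unadjusted p under 0.05, a level reached by 14.4% of all tested probe sets. Among them were Cox10, an enzyme of haem A synthesis, at 0.13, Cmc2 at 0.18 and Cox16 at -0.08. Of 5 genes of complex V assembly and regulation 1 was higher, Atpif1, the inhibitor of ATP hydrolysis, with 0.15 (limma adjusted p = 0.149). Atpaf1 was at -0.06 and Tmem70 at 0.02. Of 11 genes taken as a measure of mitochondrial content 2 were higher, the phosphate carrier Slc25a3 with 0.12 and the ADP/ATP carrier Slc25a4 with 0.11, and Hspd1 was at 0.15. The testis cytochrome c gene Cyct was at -0.09. The 16 genes of pyruvate dehydrogenase and the citric acid cycle and the 10 further complex I assembly genes had 0 at an unadjusted limma p under 0.05, with Ogdh at 0.08, Idh3b at 0.09, Idh3a at 0.13, Dmac2 at -0.15, Timmdc1 at 0.10 and Foxred1 at 0.10.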

How the data were processed

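Gene expression was measured on Affymetrix Mouse Gene 1.1 ST array strips from 250 ng of total RNA, per the labels' protocols. The authors deposited 1 log2 value for each of 35556 probe sets and 12 arrays, made with RMA and Partek 6.6 per the submitters' processing notes. RMA settings and genome build were not given in the sources used here. That the scale is log2 was taken from the range of the values, 1.86 to 12.29. RMA makes the arrays' distributions alike and so hides any shift common to most genes. Array medians ran from 4.78 to 4.85, array correlations from 0.991 to 0.997, and 0 pairs were identical. The number of arrays limits the precision. The labels used here name no litter, sex or array strip, so the fits hold no batch term and p-values treat any litter mates as independent.

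Probe sets were named from the platform annotation: 21218 carried 1 symbol and were tested, 1881 carried several and 12457 had none listed. limma 3.58.1 in R 4.3.3 (lmFit, eBayes, exposure as the only term, two-sided) was fitted to all of them with no filter. On data simulated from the real means and SDs of the 21218 probe sets, the poly(I:C) comparison recovered 66% of probe sets changed by 0.25, 98% at 0.5 and 100% at 1 and 2, with 9 false calls. Each simulated probe set was drawn independently, without the shifts shared by many genes of an array that are described above. More probe sets were changed in the simulation than the 13 called in the real data, which makes the adjusted threshold easier to pass. Recovery in the real data can therefore be lower, and a gene without a call is not shown to be unchanged.

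Genes named are all complex III genes, those at an unadjusted p under 0.05, per complex the 3 smallest p-values and the 2 highest means, the paired tissue isoforms, the extremes, and up to 3 genes of each other pathway list. Ndufs8, Ndufv2, Ndufb6, Ndufa4, Sdhd, Ndufa11, Ndufaf5, Atp5g2 and Atp5g3, and genes named for the signs of their further probe sets, fall outside that rule and were picked with their values in view. The genes and lists were chosen with earlier results of these data known. Alternatives covered normalization, filtering, moderation, array weights, a replicate block, marker covariates, omitted arrays and the probe set per gene.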

Additional observations from a re-analysis of the deposited data

Results flagged for a closer look

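In a group of 6 arrays, an array is listed here when its gap to the next one exceeds Dixon's critical share of the group's range, which chance gives in about 5% of groups. This was checked in 88 groups. Poly(I:C) 6 was low for the median deviation of all 92 genes (-0.090, next lowest poly(I:C) array -0.01), of complex I (-0.12, next -0.01) and of complex II (-0.14, next 0.02). In the same array Sdhc was at 7.88 (next 8.02) and Atp5d at 10.61 (next 10.76). Atp5l was low in poly(I:C) 5 at 6.87 (next 7.01).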

How the results depend on the processing

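The Uqcrc1 difference kept its sign under all 23 alternatives with an adjusted p. Omitting arrays could not change that sign, because the groups do not overlap for this gene, so nothing is read from it there. The Uqcrc1 difference was no longer past the adjusted threshold with trend and robust moderation (0.32, limma adjusted p = 0.0615). The same held with the cortical and choroid plexus means (0.29) or the myelin mean (0.32) as covariates, and without control 4 and control 6 together (0.29). In the fit to all deposited probe sets, which is not among the 23, the difference was not past the threshold either. With single arrays left out it ran from 0.30 to 0.35. The replicate numbers do not pair the samples (correlations of same-numbered deviations from -0.20 to 0.27), and with the replicate number as a block the difference was 0.32 (adjusted p = 0.122) and the count of called probe sets was 0. The 13 called probe sets became 38 after a further quantile normalization, 20 above the median level, 1 with trend and robust moderation, 140 with array weights, 146 without control 1, control 4 and poly(I:C) 6, and 0 with either set of covariates, without control 4 and control 6, and over all deposited probe sets. Single omissions gave 0 to 84, with 0 without control 4, 5 or 6 or poly(I:C) 2, 3, 4 or 5. The limma settings with 0 calls had 1768 to 4658 probe sets at an unadjusted p under 0.05. These counts are out of 21218 probe sets, or out of 35556 in the fit to all deposited ones, and are not on 1 scale. The 12 genes at an unadjusted p under 0.05, of which 3 are assembly factors, became 6 above the median level and 30 with the myelin mean. There were 25 without those 3 arrays, from which nothing is read, and 4 to 17 with single omissions. The low counts were 6 on omitting control 1 or either of poly(I:C) 3 and 4. They were 5 without poly(I:C) 2 and 4 without poly(I:C) 5. Of all tested probe sets 14.4% were at that level in the main fit and 13.4% with the myelin mean. Above the median level it was 17.8%, against 7.5% of the 80 genes there. With single omissions 2344 to 3634 of the 21218 probe sets were at that level, so the gene counts are not read on their own. With the myelin mean the median difference was -0.11 for all genes, -0.14 for complex I, -0.17 for the other complex III genes, -0.11 for complex IV and -0.11 for complex V. Without the 3 arrays, an omission chosen on these genes' own values that could only raise it, it was 0.028 for complex IV, against -0.04 with all arrays. The cause of these changes was not tested. Of 821 values of the other named genes 808 moved by less than 1 SD and 0 passed the adjusted threshold.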
